A study of Mus musculus with 6 samples.

Results

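The genes described are Parp9, Dtx3l, Parp10, Parp11, Parp12 and Parp14, a group of interferon-linked ADP-ribosylation genes. They were chosen by name, matching the Ensembl identifiers in the deposited FPKM values to GENCODE M21 symbols, and make up 6 of the 54886 genes listed. Earlier results of these data were known when the choice was made. All 6 reached a mean FPKM (fragments counted on a gene, scaled by its length and the library's depth) of at least 1 and are among the 11884 genes tested. RNA was sequenced from GC-2spd cells, an immortalized mouse line with a BALB/c strain background that the labels describe as derived from spermatocytes. One group of 3 libraries came from cells exposed to 100 μg/mL PM2.5, which was an urban particulate reference material suspended in PBS, for 48 h. The control group of 3 libraries was kept without particles (0 μg/mL), in normal medium according to the labels. The paper's cell culture methods name PBS beside normal medium for the control group. All the libraries are of this 1 line, the dose and the time are the only ones sequenced, and the labels do not say that the libraries of a group came from separate cultures. The paper's statistics section speaks in general of repeated experiments and does not name the libraries, so p-values are taken to measure only the spread between these libraries, which may be technical.

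ADP-ribosyltransferases of the PARP family take ADP-ribose from NAD and attach it to proteins. Most of the family attach a single unit, and Parp10, Parp11, Parp12 and Parp14 are enzymes of this kind. Parp9 and Dtx3l work as a heterodimer. Dtx3l is a Deltex E3 ubiquitin ligase and not itself a PARP, and Parp9 carries macrodomains, which bind ADP-ribose. The genes belong to the wider interferon response, in which type I interferon acts through its receptor and JAK kinases on a promoter element called ISRE, and interferon gamma on an element called GAS. In the testis Parp11 is known for its part in shaping the spermatid head.

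Parp9, Dtx3l and Parp14 lie together on chromosome 16 in the mouse build GRCm38 (GENCODE M21). Parp14 (ENSMUSG00000034422) spans 35832874 to 35871544 on the minus strand and Dtx3l (ENSMUSG00000049502) spans 35926511 to 35939151 on the same strand, 54967 bases away. Parp9 (ENSMUSG00000022906) spans 35938470 to 35972605 on the plus strand, so that it starts head to head with Dtx3l and overlaps it by 682 bases. The other 3 genes lie apart from them. Parp12 (ENSMUSG00000038507, 39086410 to 39118349, minus strand) and Parp11 (ENSMUSG00000037997, 127446840 to 127494261, plus strand) are on chromosome 6, and Parp10 (ENSMUSG00000063268, 76231174 to 76243441, minus strand) is on chromosome 15.

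The RefSeq promoter table for GRCm38.p6 held windows of 300 bases, from 250 before to 50 after a transcription start, for 3 of the genes. Dtx3l and Parp12 had 1 window each and Parp11 had 2. Parp9, Parp10 and Parp14 had no entry. The Dtx3l window (chr16:35938978-35939277, minus strand) is shown because it is also the start region of Parp9: 4 of the 7 annotated Parp9 transcripts start inside it, between 35939011 and 35939061. The Parp12 window (chr6:39118300-39118599, minus strand) belongs to the most abundant of the genes, and the first Parp11 window (chr6:127446590-127446889, plus strand) is the only one of the 4 that matched the core of an interferon element. Capitals mark matches to 3 motif cores that were searched on both strands: ISRE as 2 GAAA repeats with any 2 bases between them, GAS as TTCNNNGAA, and XRE, the element bound by the aryl hydrocarbon receptor, as GCGTG.
Dtx3l and Parp9: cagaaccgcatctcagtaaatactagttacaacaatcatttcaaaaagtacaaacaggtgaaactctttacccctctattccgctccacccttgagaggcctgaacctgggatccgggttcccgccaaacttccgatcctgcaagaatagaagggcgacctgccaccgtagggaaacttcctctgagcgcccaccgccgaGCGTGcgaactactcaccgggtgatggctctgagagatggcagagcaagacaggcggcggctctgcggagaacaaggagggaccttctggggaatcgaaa
Parp12: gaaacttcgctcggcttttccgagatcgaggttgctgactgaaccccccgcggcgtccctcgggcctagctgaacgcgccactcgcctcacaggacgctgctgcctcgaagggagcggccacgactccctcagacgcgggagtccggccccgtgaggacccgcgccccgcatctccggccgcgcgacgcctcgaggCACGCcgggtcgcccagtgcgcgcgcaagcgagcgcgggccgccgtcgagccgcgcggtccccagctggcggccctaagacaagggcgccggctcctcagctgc
Parp11, first start: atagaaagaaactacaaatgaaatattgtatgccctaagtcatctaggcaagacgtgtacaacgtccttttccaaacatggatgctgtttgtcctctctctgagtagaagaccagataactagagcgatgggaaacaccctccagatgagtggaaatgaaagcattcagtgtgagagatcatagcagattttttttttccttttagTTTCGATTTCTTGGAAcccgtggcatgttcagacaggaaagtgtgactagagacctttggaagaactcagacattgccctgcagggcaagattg
In the Parp11 window the capitals hold an ISRE core on the reverse strand (positions -44 to -35 from the start) and a GAS core (-37 to -29) that overlaps it by 3 bases. The Dtx3l window held an XRE core at -50 to -46 and the Parp12 window one at -54 to -50. The second Parp11 window (chr6:127453377-127453676, plus strand) held 2. Of all 32851 windows in the table, 3.44% held the ISRE core, 8.3% the GAS core and 32.4% the XRE core. A match describes letters in the window and is not a measured binding site. GC content was 73.7% in the Parp12 window, 54.3% in the Dtx3l window and 42% in the first Parp11 window.

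1 control library stood apart from the other 5, which touches every value below. Pearson's r of log2(FPKM + 1) over the genes tested was 0.992 for control replicates 1 and 3, but control replicate 2 reached only 0.742 and 0.745 with them, and 14.5% of its reads were mitochondrial against 1.65% to 1.95% elsewhere. PM2.5 replicate 3 had a higher r with control replicates 1 and 3 (both 0.972) than with PM2.5 replicates 1 and 2 (0.950 and 0.958). The reads recovered from the FPKM ranged from 16203632 to 17997164 per library. Cyp1a1, the aryl hydrocarbon receptor target used here as the check of the exposure, had 2, 0 and 0 reads in control replicates 1 to 3 and 306, 302 and 400 in PM2.5 replicates 1 to 3. Spermatocyte markers were close to absent: none of the 15 listed genes reached a mean FPKM of 1, 6 of them, including Spo11 and Dazl, were at 0 in every library, and their summed FPKM was 0.497 to 2.76 in the control group and 0.0876 to 0.643 in the PM2.5 group. Fibroblast and mesenchymal markers reached it for 6 of 9 genes (summed FPKM 902 to 1380 and 676 to 886, Lum at 0 throughout), and Sertoli and Leydig markers for 2 of 12, Gata4 and Star (19.9 to 21.2 and 14 to 25.4). Of 10 immune markers, Cd68 alone did, at 15.5 in control replicate 2 and at most 1.80 elsewhere, while Ptprc, Adgre1, Itgam and Cd3e were at 0 in every library. The immune sums were 1.24 to 16.0 in the control group and 1.53 to 2.58 in the PM2.5 group. The part of these markers in the results was not tested.

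In control replicates 1 and 3, all 6 genes were higher than in every PM2.5 library, a pattern held by 19.6% of all genes tested. Without control replicate 2, Parp9, Dtx3l, Parp12 and Parp14 were called lower in PM2.5-exposed cells, with folds between 2.33 and 3.64 in mean FPKM, while Parp10 and Parp11 did not pass the test. With all 6 libraries 0 of the 6 were called. Once control replicate 2 was left out, omitting PM2.5 replicate 1 or 2 as well left 0 of the 6 called, and 0 of all genes tested. Omitting control replicate 1 or 3 as well left the other as the only control, and the calls did not hold there either. A gene was called where limma gave an adjusted p-value under 0.05 (Benjamini-Hochberg, over all genes tested) and the log2 fold change on the log2(FPKM + 1) scale was beyond 1 in size. This scale understates the change of low genes. The share of all genes called lower was 0.0589% with 6 libraries and 0.547% without control replicate 2, and in either direction 0.0926% and 0.707%. In bulk RNA, fewer cells that express a gene and less of its RNA per cell cannot be told apart.

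Parp9, the macrodomain partner of the heterodimer, had an FPKM of 24.9, 12.4 and 20.6 in control replicates 1, 2 and 3 and of 7.40, 8.19 and 9.81 in PM2.5 replicates 1, 2 and 3. Every PM2.5 library lay below every control library, with control replicate 2 the nearest to them. The control mean was 19.3 ± 6.35 (SD, n = 3) and the PM2.5 mean 8.47 ± 1.23 (SD, n = 3). Its log2 fold change was -1.05 with 6 libraries (SE 0.29, adjusted p = 0.857 from limma) and -1.33 without control replicate 2 (SE 0.15, adjusted p = 0.0404 from limma).

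Dtx3l, the ubiquitin ligase of the pair, had an FPKM of 13.2, 1.79 and 12.1 in the control libraries and of 5.10, 5.38 and 5.87 in the PM2.5 libraries, each in order of replicate number. The groups overlapped because control replicate 2 lay below all the others. It held 133 Dtx3l reads (95% Poisson interval 111 to 158, counting error only), against 1405 and 1254 in the other controls and 522 to 607 in the PM2.5 libraries. Over 6 libraries the log2 fold change was -0.32 (SE 0.64, 95% interval -1.89 to 1.24, adjusted p = 0.898 from limma). Without control replicate 2 it was -1.09 (SE 0.10, adjusted p = 0.0215 from limma), from a control mean of 12.7 ± 0.761 (SD, n = 2) to 5.45 ± 0.387 (SD, n = 3).

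Because FPKM is per length, the level of Dtx3l could be set against that of Parp9 within each library. The ratio of Dtx3l to Parp9 was 0.531, 0.145 and 0.590 in control replicates 1, 2 and 3 and 0.690, 0.656 and 0.598 in PM2.5 replicates 1, 2 and 3. All 3 PM2.5 ratios lay above all 3 control ratios, though PM2.5 replicate 3 and control replicate 3 differed little. On the log2 scale the control ratio averaged -1.49 ± 1.13 (SD, n = 3) and the PM2.5 ratio -0.63 ± 0.10 (SD, n = 3), a difference of 0.86 that came to 0.21 without control replicate 2. The two-sided exact permutation test gave p = 0.1, the smallest value that 3 against 3 libraries allow. The exons of the pair share 458 bases on opposite strands (9.40% of Parp9 and 8% of Dtx3l). Whether reads were counted by strand is not given in the sources used here, and reads from the shared stretch cannot be told apart.

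Parp14, a mono-ADP-ribosyltransferase with macrodomains of its own, had the largest decrease of the 6 without control replicate 2. Its FPKM was 12.4, 5.93 and 11 in control replicates 1, 2 and 3 and 2.97, 3.25 and 3.40 in PM2.5 replicates 1, 2 and 3. The groups did not overlap, and control replicate 2 was again the lowest control. The log2 fold change was -1.30 over 6 libraries (SE 0.28, unadjusted rank 82 of 11884, adjusted p = 0.527 from limma) and -1.59 without control replicate 2 (SE 0.10, rank 20, adjusted p = 0.00998 from limma). Between control replicates 1 and 3 (11.7 ± 0.987, SD, n = 2) and the PM2.5 group (3.20 ± 0.218, SD, n = 3) the mean differed 3.64-fold.

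Parp12, a mono-ADP-ribosyltransferase with CCCH zinc fingers, was the most abundant of the genes in every library but control replicate 2. It had an FPKM of 57.9, 17.5 and 56.5 in the control libraries and of 23.1, 26.8 and 19.5 in the PM2.5 libraries, each in order of replicate number. The 2 like controls lay above every PM2.5 library and control replicate 2 below them all. Its log2 fold change was -0.73 over 6 libraries (SE 0.49, 95% interval -1.92 to 0.46, adjusted p = 0.875 from limma). Leaving out control replicate 2 gave -1.28 (SE 0.15, adjusted p = 0.0411 from limma), a 2.48-fold lower mean.

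Parp10, a mono-ADP-ribosyltransferase with ubiquitin-interaction motifs, moved the other way in control replicate 2. The FPKM was 26.4, 62.1 and 24.2 in control replicates 1, 2 and 3 and 14.4, 13.5 and 9.89 in PM2.5 replicates 1, 2 and 3. The groups did not overlap, and here control replicate 2 was the highest of all. The log2 fold change was therefore larger with that library (-1.38, SE 0.40, adjusted p = 0.875 from limma) than without it (-0.96, SE 0.18, 95% interval -1.42 to -0.51, adjusted p = 0.108 from limma). Without it the means were 25.3 ± 1.55 (SD, n = 2) and 12.6 ± 2.40 (SD, n = 3), a ratio of 2. Parp10 exons share 205 bases with Plec on the same strand.

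Parp11, a mono-ADP-ribosyltransferase with a WWE domain, was the lowest of the genes in control replicates 1 and 3 and differed least. It had an FPKM of 4.95, 2.13 and 4.55 in the control libraries and of 2.94, 3.20 and 3.55 in the PM2.5 libraries, each in order of replicate number. Control replicates 1 and 3 lay above the PM2.5 libraries and control replicate 2 below them. With 6 libraries the log2 fold change was -0.15 (SE 0.28, 95% interval -0.85 to 0.54, adjusted p = 0.892 from limma) and -0.44 without control replicate 2 (SE 0.11, 95% interval -0.71 to -0.17, adjusted p = 0.161 from limma).

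**Figure D1:**
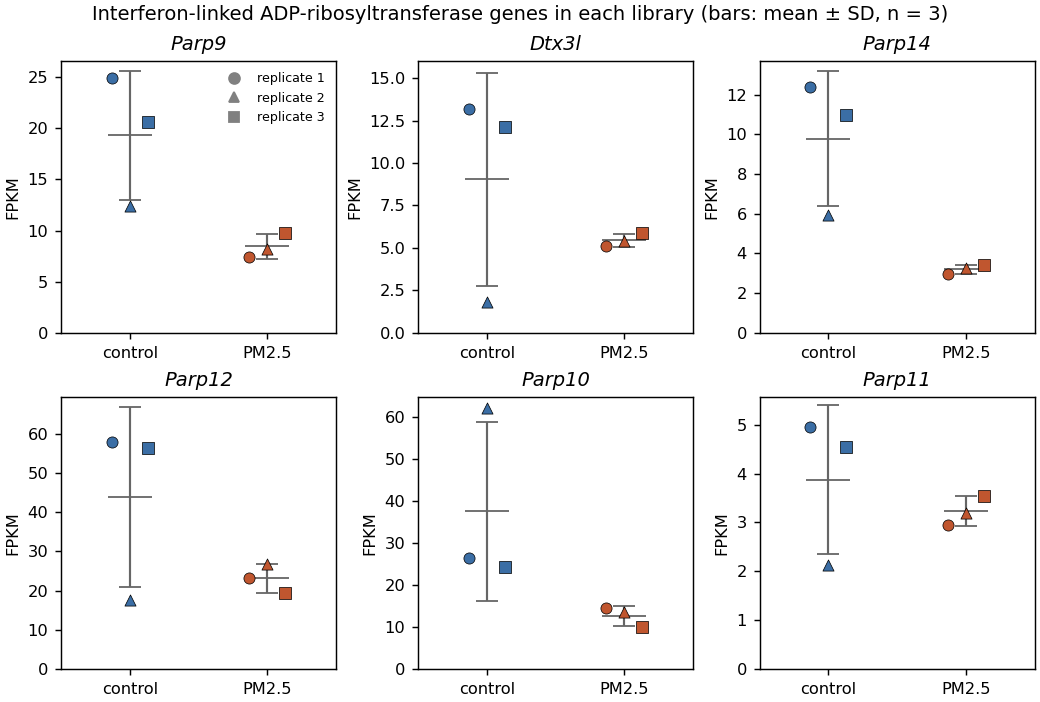
FPKM of the 6 genes in each library, 1 panel per gene with its own axis from 0, for the control (blue) and PM2.5 (orange) groups, with replicates 1, 2 and 3 as circle, triangle and square and bars for the mean ± SD (n = 3). Control replicates 1 and 3 sit above all PM2.5 libraries for each of the 6 genes, as for 19.6% of all genes tested. Control replicate 2 is the lowest library for Dtx3l (1.79), Parp11 (2.13) and Parp12 (17.5) and the highest for Parp10 (62.1).

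As a list, the 6 genes had a median log2 fold change of -0.89 over 6 libraries, where the median of all genes tested was 0.02, and of -1.18 without control replicate 2, where it was -0.01. With 6 libraries, 3 of the 6 (Parp9, Parp10 and Parp14) had all PM2.5 libraries below all control libraries, a pattern held by 6.85% of all genes, and the same 3 had an unadjusted p-value under 0.05 in limma and were lower, against 1.88% of all genes. Voom on the recovered reads of 6 libraries called 0 of the 6 and 0 of all genes it tested, so this count does not set the 6 apart. Without control replicate 2, all 6 genes had groups that did not overlap, against 19.6% of all genes in that direction, 4 were called, and all 6 were lower at an unadjusted p-value under 0.05 in limma, against 7.63% of all genes. Because the 6 were chosen with earlier results of these data known, their counts are not independent evidence of a direction. The summed FPKM of the 6 was 140, 102 and 129 in control replicates 1, 2 and 3 and 55.9, 60.3 and 52.0 in PM2.5 replicates 1, 2 and 3, with no overlap between the groups.

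**Figure D2:**
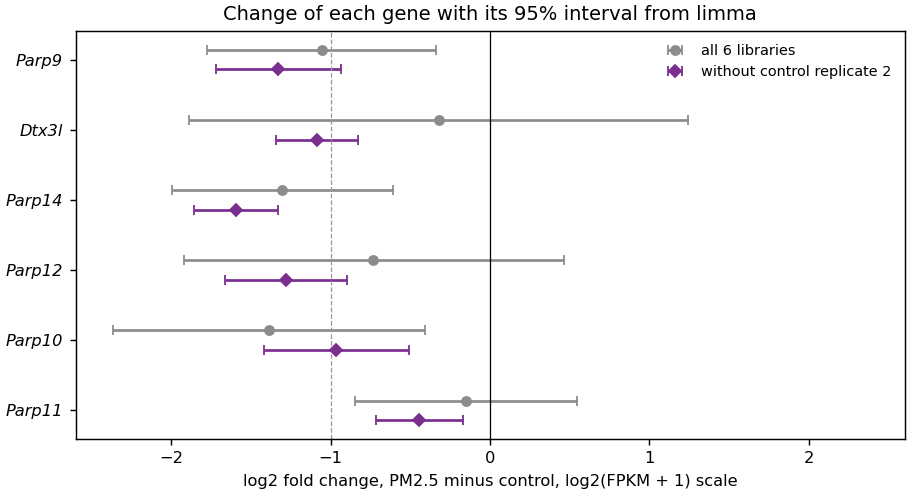
Log2 fold change of each gene, PM2.5 minus control on the log2(FPKM + 1) scale, with the 95% interval from limma for all 6 libraries (grey circles) and without control replicate 2 (purple diamonds). The dashed line marks the fold threshold of -1. All 12 estimates are below 0, and the intervals narrow without control replicate 2, most of all for Dtx3l.

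The order of the levels hardly changed with exposure. It ran Parp12, Parp10, Parp9, Dtx3l, Parp14 and Parp11 from highest to lowest FPKM in control replicates 1 and 3 and in PM2.5 replicates 1 and 2. In PM2.5 replicate 3 Parp11 (3.55) passed Parp14 (3.40). Between those 2 controls the ranges of Parp10 and Parp9 overlapped, as did those of Dtx3l and Parp14. Within each of the 2 controls Parp10 was above Parp9 and Dtx3l above Parp14, and these differences were not tested. Among the PM2.5 libraries only the ranges of Parp14 and Parp11 overlapped. Control replicate 2 had another order, in which Parp10 came first and Dtx3l last.

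Control replicate 2 departed from the other controls along with base composition. Across 11735 genes, which are not independent, its difference from control replicates 1 and 3 had a Spearman rho of 0.338 with the GC content of the longest transcript and of -0.300 with exon length. The median difference on the log2 scale was -0.52 in the lowest of 5 equal bins of genes by GC content and 0.68 in the highest. Parp10 (GC content 57.9%) was in the highest bin, with a difference of 1.26, and Parp12 (50.6%) in the third, with -1.65. Dtx3l (45.9%), Parp9 (47.5%), Parp14 (46.3%) and Parp11 (46.5%) were in the second bin, where the median was -0.41, with differences of -2.29, -0.82, -0.87 and -0.88. The log2 fold change without control replicate 2 also had a rho with GC content (0.327), with medians from -0.15 in the lowest to 0.10 in the highest bin, and each of the 6 genes lay below the median of its own bin. The part of GC content in the results was not tested.

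**Figure D3:**
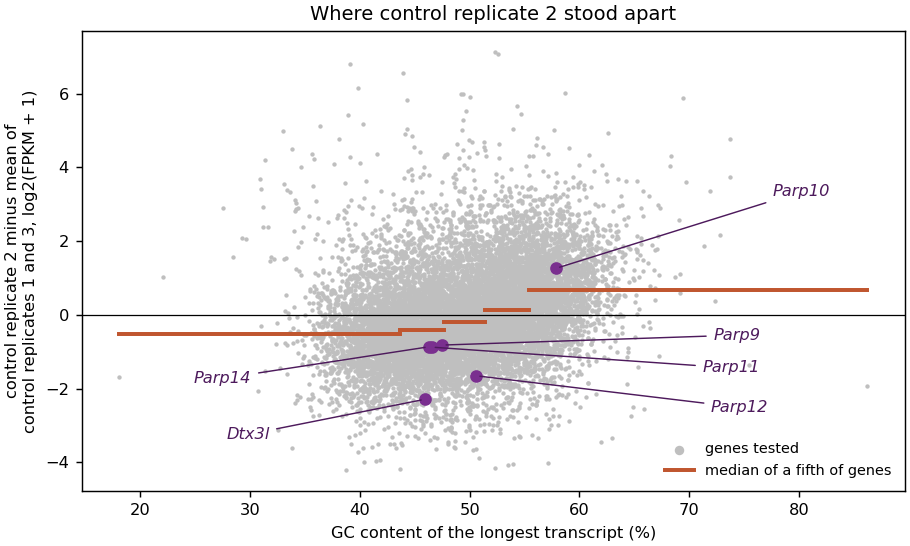
Difference of control replicate 2 from the mean of control replicates 1 and 3 on the log2(FPKM + 1) scale, against the GC content of the longest transcript, for the genes tested (grey points), with the median of each of 5 equal bins by GC content (orange lines). Parp10 lies above 0 at 1.26 and the other 5 genes below it, down to -2.29 for Dtx3l.

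None of the other tested neighbours of the chromosome 16 genes was called. Within 250 kb of the Dtx3l start the annotation places 23 genes, of which 9 were tested: Parp9, Dtx3l, Parp14 and 6 others. Without control replicate 2 the log2 fold changes of the others were 0.13 for Dirc2, 0.14 for Hspbap1, -0.05 for Kpna1, 0.12 for Wdr5b, -0.32 for Fam162a and 0.15 for Ccdc58. Their 95% intervals all took in 0, whereas those of Parp9, Dtx3l and Parp14 lay wholly below -0.8. None of the 6 others was called in the 6-library fit either. Of all genes, 0.0926% were called in that fit and 0.707% without control replicate 2. For Fam162a every PM2.5 library lay below every control library, with and without control replicate 2. This held for 6.85% of all genes with 6 libraries and for 19.6% without control replicate 2. The adjusted p-value of Fam162a from limma was 0.875 with 6 libraries and 0.403 without control replicate 2. For Dirc2 every PM2.5 library lay above every control library in both sets, and for Hspbap1 and Wdr5b only without control replicate 2. The difference between the neighbours and the 3 genes was not itself tested.

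**Figure D4:**
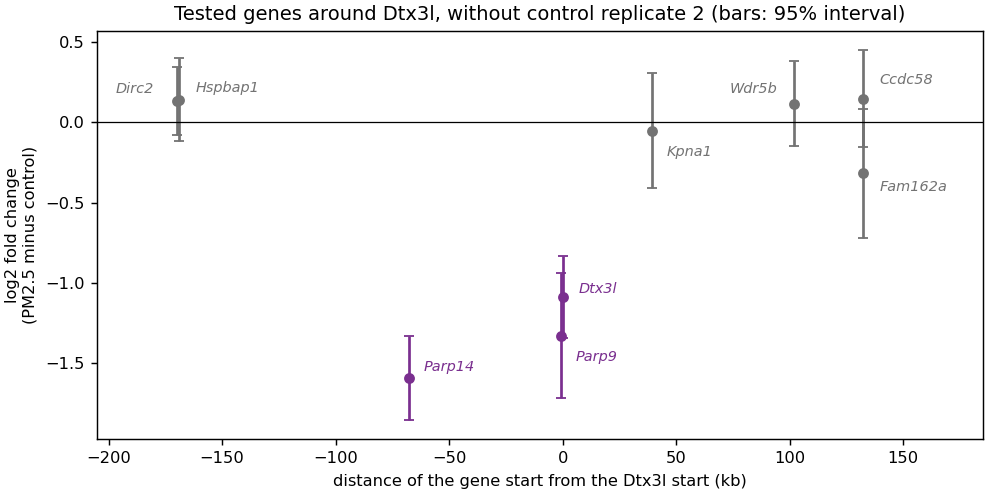
Log2 fold change without control replicate 2, with its 95% interval from limma, of the 9 genes tested within 250 kb of the Dtx3l start, against the distance of each gene's start from it in kb. Parp14, Parp9 and Dtx3l lie between -1.59 and -1.09 and the other 6 genes between -0.32 and 0.15.

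Among the 11 other genes of the PARP family, 0 were called in either limma fit or by voom. Over 6 libraries voom called 0 of all genes. Their median log2 fold change was -0.19 over 6 libraries and 0.02 without control replicate 2. An unadjusted p-value under 0.05 in limma was found for 2 lower genes and 1 higher gene with 6 libraries. Without control replicate 2 it was found for 4 lower genes and 1 higher gene. Of all genes, 1.88% and 7.63% were lower at that level in the 2 fits. Without control replicate 2 the log2 fold changes of the 4 lower genes ran from -0.60 to -0.36, where Parp11 was at -0.44. Tiparp, a mono-ADP-ribosyltransferase induced by the aryl hydrocarbon receptor, had the highest log2 fold change. Its FPKM was 16.7, 7.25 and 15.4 in control replicates 1, 2 and 3 and 31.6, 33.1 and 43.7 in PM2.5 replicates 1, 2 and 3, so that every PM2.5 library lay above every control library. The log2 fold change was 1.46 over 6 libraries (SE 0.35, adjusted p = 0.616 from limma) and 1.11 without control replicate 2 (SE 0.17, adjusted p = 0.0698 from limma). Zc3hav1, the antiviral zinc finger protein whose PARP domain is inactive, was the lowest without control replicate 2, at -0.60 (SE 0.09, adjusted p = 0.0652 from limma).

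Enzymes that remove or read ADP-ribose and those that make or use NAD were likewise not called, where voom over 6 libraries called 0 of all genes. Of 7 tested genes for ADP-ribose removal and macrodomain proteins, 0 were called in limma or by voom and 0 had an unadjusted p-value under 0.05 in limma, in either fit. Without control replicate 2 they ran from -0.24 for Parg, the poly(ADP-ribose) glycohydrolase, to 0.29 for Macrod1. Of 14 genes of NAD synthesis and use, 0 were called in either fit or by voom, with 0 unadjusted p-values under 0.05 in limma over 6 libraries and 2, both higher, without control replicate 2. Sirt1 (-0.34) and Sirt2 (0.54), both NAD-dependent deacetylases, were their extremes without control replicate 2. Of the Deltex ligases related to Dtx3l, Dtx2 and Dtx3 were tested and neither was called, also by voom, or had an unadjusted p-value under 0.05. None of the 5 ecto-ADP-ribosyltransferases reached a mean FPKM of 1.

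Interferon-stimulated genes outside the group were lower too. Of 24 tested interferon-stimulated genes from a list without the 6, 4 were called lower in limma with 6 libraries (Ifi44, Rtp4, Oasl2 and Usp18) and 16 without control replicate 2, and 0 were called higher. Voom on the recovered reads called 0 of the 24 with 6 libraries, where it called 0 of all genes tested. It called 17 of them lower without control replicate 2. The median log2 fold change was -1.57 over 6 libraries and -1.64 without control replicate 2, further from 0 than that of the 6 genes. All 24 estimates were negative in both fits. This list was known to move in these libraries when it was written, so its count is not independent evidence of a direction. The 16 genes were Ifit1 (-2.75), Ifit3 (-2.54), Ifi44 (-2.53), Isg15 (-2.42), Rtp4 (-2.16), Oasl2 (-2.09), Dhx58 (-2.06), Usp18 (-2.02), Cmpk2 (-1.86), Trim30a (-1.84), Rsad2 (-1.84), Mx2 (-1.80), Ddx58 (-1.35), Ifih1 (-1.34), Xaf1 (-1.28) and Eif2ak2 (-1.18), each with its log2 fold change without control replicate 2. The summed FPKM of the list was 1130 to 1280 in control replicates 1 and 3, 3800 in control replicate 2 and 371 to 422 in the PM2.5 libraries.

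Of 14 tested genes for interferon receptors, their kinases, STATs and IRFs, 0 were called in limma over 6 libraries. In that fit 5 were lower at an unadjusted p-value under 0.05, against 1.88% of all genes. Voom over 6 libraries called 0 of the 14 and 0 of all genes. Without control replicate 2, 4 of the 14 were called lower in limma. Among them were the transcription factors Irf7 (-1.81), Stat2 (-1.35) and Irf9 (-1.09). Ifnar2, a chain of the type I interferon receptor, had the highest log2 fold change at 0.13 and was not called. The median of the 14 was -0.30 in both fits.

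**Figure D5:**
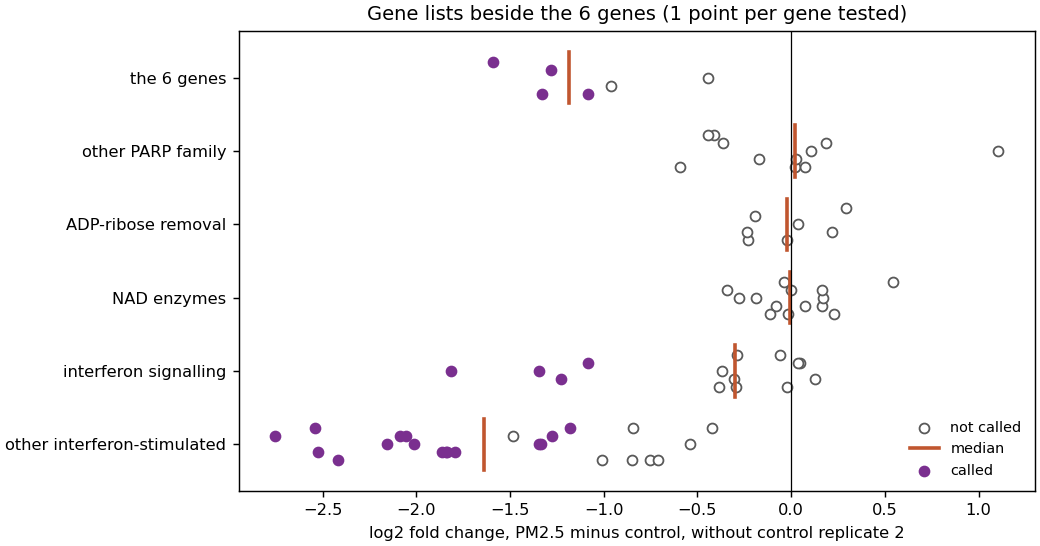
Log2 fold change without control replicate 2 of each tested gene, by list, with called genes filled, genes not called open and the list median as an orange line. The 6 interferon-linked genes (median -1.18) and the other interferon-stimulated genes (median -1.64) lie below 0, and so do the 4 called genes of interferon signalling (list median -0.30), while the medians of the other PARP genes (0.02), the ADP-ribose removal genes (-0.02) and the NAD genes (-0.01) lie near it.

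The genes most like the mean profile of the 6 were sought by the root mean square difference of log2(FPKM + 1), each gene centred on its own mean. Over 6 libraries these were Eif2ak2 (0.052), Trim21 (0.11), Ifih1 (0.12), Sned1 (0.12) and Ccng2 (0.13), where the median of all genes was 0.622 and the members themselves ranged from 0.162 to 0.782. Over the 5 libraries without control replicate 2 they were Hopx (0.043), Irf9 (0.050), Eif2ak2 (0.056), Sp100 (0.064) and Ly6e (0.064), against a median of 0.566. Eif2ak2, the double-stranded RNA-activated kinase PKR, was the only gene in both sets. Its FPKM was 53.8, 27.3 and 48.8 in control replicates 1, 2 and 3 and 20.9, 22.1 and 23.2 in PM2.5 replicates 1, 2 and 3, with control replicate 2 the lowest control, as for Parp9 and Parp14.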

How the data were processed

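RNA was measured in 6 libraries, grouped by the treatment in their labels. Per the paper's methods and the submitters' notes, the authors built them with the NEBNext Ultra kit, sequenced paired-end reads, mapped with HISAT2 2.0.5, counted with featureCounts 1.5.0-p3 and deposited FPKM. The notes name build mm9, yet exon lengths of GENCODE M21 (GRCm38) turned 98.0% to 98.1% of values under 50 reads into whole reads (within 0.02), which gave the depth. The deposited FPKM were already scaled between libraries by factors of 0.769 (control replicate 2) and 1.06 to 1.11. The authors tested counts with DESeq2, and FPKM need a test on a log scale, so limma 3.58.1 (trend, robust, R 4.3.3) was fitted to log2(FPKM + 1) over the genes averaging an FPKM of 1 or more, in all 6 libraries and without control replicate 2. Voom, other filters, pseudocounts and scalings, a replicate block and omitted libraries were alternatives. The code was tested on simulated data. Members, gene lists and tests were chosen with earlier results of these data known. Named genes are the members, list genes called in either fit or otherwise the extremes of a list, tested neighbours of Dtx3l within 250 kb, the 5 closest profiles, and Cyp1a1. Other marker genes were picked with their values in view.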

Additional observations from a re-analysis of the deposited data

How the results depend on the processing

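All 6 genes were negative in the 7 other settings over 6 libraries, and 0 were called there. Parp11 had 6 of these settings, as it falls under a mean FPKM of 5. The replicate block and the 2 other filters cannot change the log2 fold change of a gene, so their signs only repeat the main fit. With 1 library left out, 0 to 4 of the 6 genes were called and between 0 and 84 of all genes tested. Here 4 and 84 come from leaving out control replicate 2, and each of the other omissions gave 0. Dtx3l turned to 0.089 without control replicate 1 and to 0.032 without control replicate 3, and Parp11 to 0.020 without control replicate 1. In each case control replicate 2 weighed more in the smaller control group. Over all genes, 11 were called in limma, 9 with a pseudocount of 0.1, 10 with quantile normalization and 6 after scaling to total reads, which moved the median log2 fold change of all genes from 0.02 to 0.13. No filter, a mean FPKM of at least 5 and voom each gave 0 (unadjusted p-values under 0.05 numbered 875, 254 and 423). The cause was not tested. With the replicate block 0 genes were called (335 at an unadjusted p-value under 0.05), and 0 of the 6. Deviations of same-numbered libraries had correlations of -0.285, 0.180 and 0.253, so the numbers were not taken as pairs.

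Further settings without control replicate 2 were chosen after seeing the data. Genes called then numbered 91 with a pseudocount of 0.1, 85 scaled to total reads, 86 with quantile normalization, 108 with voom and 92 with the replicate block. Of the 6 genes 4 were called in each, except 3 with the block, where Dtx3l had an adjusted p-value of 0.0811 from limma. Leaving out 1 more library gave 0 genes, and 0 of the 6, except for PM2.5 replicate 3, without which 356 were called and again 4 of the 6. In that last fit 5602 of the 11884 genes tested had an adjusted p-value under 0.05 from limma before the fold threshold. Where 1 control was left, it was assumed to vary like the PM2.5 libraries. Over all 5 omissions of 1 more library, the log2 fold change ranged from -1.14 to -1.03 for Dtx3l and from -0.50 to -0.39 for Parp11. The calls therefore rest on leaving out control replicate 2 and on keeping the other 2 controls and PM2.5 replicates 1 and 2. Each of the 6 genes had at least 133 reads in every library.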
